A study of Homo sapiens with 6 samples.

Results

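Aminoacyl-tRNA synthetases are the enzymes that join each amino acid to its transfer RNA, the step that fixes the meaning of the genetic code before translation begins. Human cells keep a cytosolic set and a separate, nuclear-encoded mitochondrial set whose gene symbols usually end in 2. Several cytosolic enzymes sit in a multi-synthetase complex held together by scaffold proteins, and many cytosolic synthetase genes are textbook targets of the amino acid stress factor ATF4.

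The deposited count table held 37 synthetase genes among 26334 rows, chosen by symbol alone. Of these, 20 were assigned to the cytosol and 17, with the suffix 2, to the mitochondrion. GARS (glycine) and KARS (lysine) encode the enzyme of both compartments from 1 gene each and were counted with the cytosolic set, and EPRS carries the glutamate and proline activities in 1 protein. All 37 passed the filter on low counts, and the lowest count of any of them in any library was 174.

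The libraries came from MCF10DCIS.com, a human breast cancer cell line of the MCF10A series that forms lesions like ductal carcinoma in situ in mice. Cells carried a U6-driven shRNA vector with TagRFP and puromycin resistance, aimed either at luciferase (shLuc, the control, 3 libraries) or at WDR5 (shWDR5, 3 libraries), and both groups were selected with puromycin at 3 µg/ml in medium with 5% horse serum. WDR5 is the WD40 subunit that histone H3 lysine 4 methyltransferase complexes share, and the comparison asked which transcripts changed when it was silenced. Poly-A RNA was sequenced. Both groups thus share the vector backbone and its selection. Nothing in the labels says that the 3 libraries of a group came from separate infections, so p-values measure the spread between these libraries, which may be technical.

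Library totals lay between 38218108 and 57640167 counts, and the groups separated on the first principal component, which held 84.4% of the variance. WDR5 was measured at 52.6, 48.5 and 51.3 CPM (counts-per-million, scaled by library size with edgeR's TMM factors) in the shLuc libraries and at 23.4, 24.4 and 20.8 in the shWDR5 libraries. Every shWDR5 library was below every shLuc library, a log2 fold change of -1.15 ± 0.07 (SE, adjusted p = 8.67e-07). Of 16117 genes tested, 56.5% passed an adjusted p under 0.05, 29.9% lower and 26.6% higher in shWDR5, so a call by itself was common in these data. The basal keratins KRT5, KRT14 and KRT17 were abundant in all libraries, while the summed fibroblast, blood and endothelial markers stayed between 0.867 and 7.03 RPKM. Of those lists COL1A2, DCN, PTPRC and VWF were near 0, at no more than 12 counts, and the sums came mostly from COL1A1 (up to 1122 counts, called lower at -0.50), CD68 (up to 599, not called) and PECAM1 (up to 312, called lower at -0.71). The summed level of the 7 basal epithelial markers was 2437 RPKM (CPM per kilobase of gene length) on average in shLuc and 4000 in shWDR5. That list did not move 1 way: KRT5, KRT14, KRT17 and TP63 were called higher, with KRT17 alone going from 1372 to 2624 RPKM, CDH1 (-1.03) and EPCAM (-0.33) were called lower, and ITGA6 was not called. The part of these markers in the results below was not tested. In bulk RNA, fewer cells of a kind and less RNA per cell cannot be told apart.

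Synthetase transcripts were mostly lower in shWDR5 cells. Of the 37 genes, 21 were called lower (56.8%, against 29.9% of all genes tested) and 6 higher (16.2%, against 26.6%), and 10 did not pass. The median log2 fold change was -0.23 over the 37 genes and -0.01 over all genes tested. Synthetase genes were also more abundant than most, with a median of 6.08 log2 CPM against 4.08, and abundance makes a call easier: among the 10622 genes at or above the lowest synthetase level, 63.7% were called, 35.8% lower and 27.9% higher. The libraries of the groups did not overlap for 31 of the 37 genes, against 62.3% of all genes tested, with shWDR5 lower for 24 (against 32.4%) and higher for 7 (against 29.9%). The changes were of ordinary size. Their median absolute log2 fold change was 0.30, against 0.31 over all genes tested and 0.27 over genes at or above the lowest synthetase level.

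Reads assigned to the 37 genes made up 0.436% ± 0.005 (SD, n = 3) of the counts in shLuc and 0.359% ± 0.008 in shWDR5. Summed over the 20 cytosolic genes, the level was 3461, 3392 and 3395 CPM in the shLuc libraries and 3024, 2993 and 2891 CPM in the shWDR5 libraries. The 17 mitochondrial genes summed to 868, 854 and 850 CPM in shLuc and to 700, 712 and 668 CPM in shWDR5. In both compartments every shWDR5 library lay below every shLuc library. The cytosolic sum decreased by 13.1% and the mitochondrial sum decreased by 19.2%.

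The cytosolic and mitochondrial sets had similar medians, and the mitochondrial set had the wider range. Among the 20 cytosolic genes 11 were called lower (55%, against 29.9% of all genes tested) and 2 higher (10%, against 26.6%). Their median log2 fold change was -0.17, with a range from -0.56 to 0.39. Without GARS and KARS, 10 of 18 were lower and 2 higher. The 17 mitochondrial genes gave 10 lower (58.8%) and 4 higher (23.5%), a median of -0.24 and a range from -1.11 to 0.76. The SD of the log2 fold changes over genes was 0.27 in the cytosolic and 0.47 in the mitochondrial set, both below the 0.64 over all genes tested. The median absolute log2 fold change was closer, at 0.26 in the cytosolic and 0.31 in the mitochondrial set. The mitochondrial genes were also less abundant, with a median of 11.3 RPKM in shLuc against 52.4. The difference in spread was not tested. Under the fold threshold that the study used for its patient-derived xenograft cells (absolute log2 fold change of at least 0.6 with a mean above 0.5 RPKM), 3 mitochondrial genes remained lower, 1 remained higher and no cytosolic gene remained, where 18.4% of all genes tested passed, 10.5% as lower and 7.9% as higher.

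LARS2, which charges mitochondrial leucine tRNA, fell the furthest of the 37. It stood at 40.0, 39.9 and 38.2 CPM in the shLuc libraries and at 18.2, 20.1 and 16.2 CPM in the shWDR5 libraries, with no overlap. The log2 fold change was -1.11 ± 0.08 (SE, adjusted p = 2.08e-06), about the size of the change in WDR5 itself. The gene lies at chr3:45430075-45590328 (hg19, plus strand) in 22 exon blocks.

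TARS2, the mitochondrial threonine enzyme, was measured at 49.0, 44.4 and 43.4 CPM in shLuc and at 32.5, 29.4 and 26.9 CPM in shWDR5 (log2 fold change -0.62 ± 0.08, adjusted p = 9.21e-05). Its groups did not overlap either. IARS2 (isoleucine) and NARS2 (asparagine) were lower by smaller steps, with log2 fold changes of -0.47 ± 0.05 and -0.40 ± 0.07. A further 5 mitochondrial genes called lower, SARS2, FARS2, VARS2, RARS2 and YARS2, lay between -0.31 and -0.23.

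MARS2, the mitochondrial methionine enzyme, rose the furthest. This gene of 1 exon block at chr2:198570028-198573114 (plus strand) was measured at 14.96, 15.9 and 15.4 CPM in shLuc and at 25.7, 26.6 and 26.2 CPM in shWDR5. The replicates of each group lay close together and far from the other group, and the log2 fold change was 0.76 ± 0.06 (adjusted p = 4.49e-06). CARS2, the mitochondrial cysteine enzyme, stood at 36.5, 36.0 and 36.4 CPM in shLuc against 50.2, 48.9 and 48.4 CPM in shWDR5 (log2 fold change 0.44 ± 0.05, adjusted p = 7.26e-05). HARS2 (histidine) gave 0.32 ± 0.07 (adjusted p = 0.00195). PARS2 (proline), the least abundant of the 37, gave 0.30 ± 0.10 (adjusted p = 0.0256), a call that was lost without shLuc replicate 3, without shWDR5 replicate 1 and without shWDR5 replicate 3, and also under DESeq2 (adjusted p = 0.057) and total count scaling (adjusted p = 0.054).

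AARS2 and EARS2 did not pass, with log2 fold changes of -0.07 ± 0.06 (adjusted p = 0.33) and -0.08 ± 0.06 (adjusted p = 0.32), and the groups overlapped. WARS2 (tryptophan) had libraries that did not overlap but missed the threshold (log2 fold change -0.23 ± 0.10, adjusted p = 0.063). It was called lower when shWDR5 replicate 2 was left out (adjusted p = 0.045).

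In the cytosol the largest decrease was that of AARS, the alanine enzyme at chr16:70286297-70323412 (minus strand). Its libraries read 182, 175 and 160 CPM in shLuc and 119, 121 and 110 CPM in shWDR5 (log2 fold change -0.56 ± 0.06, adjusted p = 3.65e-05). EPRS stood at 343, 337 and 350 CPM in shLuc and at 239, 249 and 234 CPM in shWDR5 (log2 fold change -0.51 ± 0.05, adjusted p = 1.29e-05). Both genes had clearly separate groups. YARS (tyrosine, -0.44 ± 0.05), IARS (isoleucine, -0.39 ± 0.05), WARS (tryptophan, -0.34 ± 0.05), MARS (methionine, -0.32 ± 0.06) and RARS (arginine, -0.29 ± 0.06) were called lower as well, with adjusted p between 3.35e-05 and 0.00152. VARS (valine), KARS and DARS (aspartate) were the least changed of the genes called lower, at -0.23, -0.19 and -0.15. The DARS call was the weakest of the 21 (adjusted p = 0.033) and was lost whenever any single library was left out (adjusted p 0.0605 to 0.109), as well as under DESeq2, DESeq2 size factors and edgeR's exact test (adjusted p = 0.083, 0.054 and 0.0503).

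CARS and FARSA went the other way. CARS, the cytosolic cysteine enzyme, stood at 58.6, 56.8 and 52.2 CPM in shLuc and at 78.5, 70.3 and 70.7 CPM in shWDR5 (log2 fold change 0.39 ± 0.07, adjusted p = 0.000666). With CARS2 it made cysteine the 1 amino acid whose cytosolic and mitochondrial genes were both called higher. GARS, HARS and TARS had the smallest cytosolic log2 fold changes, 0.00 ± 0.05, -0.01 ± 0.05 and 0.02 ± 0.05, and no direction can be given for them because the sign changed with the scaling or the libraries used. LARS, QARS, SARS and NARS also did not pass, at 0.07, -0.07, -0.11 and -0.13.

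The subunits of the cytosolic phenylalanine enzyme moved in opposite directions. This enzyme is an assembly of alpha subunits, encoded by FARSA, and beta subunits, encoded by FARSB. FARSA was at 59.5, 60.2 and 56.4 CPM in shLuc and at 81.0, 72.5 and 75.0 CPM in shWDR5 (log2 fold change 0.38 ± 0.06, adjusted p = 0.000443). FARSB was at 75.7, 75.8 and 80.9 CPM in shLuc and at 51.9, 58.4 and 52.0 CPM in shWDR5 (log2 fold change -0.52 ± 0.06, adjusted p = 7.31e-05). Per length, the FARSA to FARSB ratio within a library was 1.13, 1.15 and 1.01 in shLuc, close to equal, and 2.25, 1.79 and 2.08 in shWDR5. Such a ratio is free of the scaling between libraries. With 3 libraries against 3 an exact two-sided permutation test cannot give a p below 0.10, which is what it gave.

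Most enzymes of the multi-synthetase complex were lower. Of the 8 complex enzymes, 6 were called lower (EPRS, IARS, MARS, RARS, KARS and DARS) and none higher by edgeR's quasi-likelihood test (75% and 0%, against 29.9% and 26.6% of all genes tested and 35.8% and 27.9% of genes at or above the lowest synthetase level). LARS and QARS did not pass, and DARS was the 1 complex gene to lose its call when any single library was left out. LARS, the 1 complex gene with a positive value, had an unadjusted p of 0.19 and was called by none of the other tools. The complex enzymes had a median log2 fold change of -0.24. Outside the complex, 5 of 12 cytosolic genes were lower and 2 higher, with a median of -0.12. Synthetases are also split by the fold of their catalytic domain into class I and class II. In the cytosol 6 of 9 class I genes were lower and 1 higher, against 4 of 10 lower and 1 higher in class II, with EPRS holding both folds. Mitochondrial class I had 5 of 9 lower and 2 higher, and class II 5 of 8 lower and 2 higher. These class counts are small and stand against the same 29.9% lower and 26.6% higher over all genes tested. The differences between these groups of genes were not tested.

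Levels are compared here per length, in RPKM. In shLuc the cytosolic genes had a median of 52.4 RPKM (19.8 to 76.7) and the mitochondrial genes a median of 11.3 RPKM (2.03 to 91.1). The exception was IARS2, a mitochondrial enzyme with the highest level of all 37 at 91.1 ± 2.05 RPKM (SD, n = 3), above GARS at 76.7 ± 1.61 and RARS at 76.6 ± 4.16. GARS and RARS did not differ beyond their spread, nor did the neighbours in 21 of the 36 steps down the order. In shWDR5 IARS2 dropped to 65.9 ± 2.57 RPKM and second place behind GARS at 76.7 ± 1.32. LARS2 went from 9.36 ± 0.24 to 4.32 ± 0.47 RPKM and from rank 31 to rank 35, and MARS2 from 5.00 ± 0.15 to 8.48 ± 0.14 RPKM and from rank 36 to rank 31. PARS2 was last in both groups.

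For 17 amino acids a cytosolic and a mitochondrial gene could be set side by side, which made 18 pairs with both phenylalanine subunits. In 6 pairs both genes were called lower, in 1 pair both higher, and in 3 pairs they were called in opposite directions: methionine (MARS -0.32, MARS2 0.76), phenylalanine (FARSA 0.38, FARS2 -0.30) and proline (EPRS -0.51, PARS2 0.30). Of all single genes tested 29.9% were called lower and 26.6% higher, and no such share was computed for pairs. EPRS and FARS2 each entered more than 1 pair, and the PARS2 call was lost under several settings. The within-library ratio of cytosolic to mitochondrial level did not overlap between groups in 13 pairs, being higher in shWDR5 in 6 and lower in 7. Non-overlap was common in these data, at 62.3% of all single genes tested, and no such share was computed for ratios. No common shift of the cytosolic against the mitochondrial set was seen across amino acids.

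Leucine and methionine marked the ends of that range. LARS, the cytosolic leucine enzyme, read 233, 231 and 236 CPM in shLuc and 242, 249 and 243 CPM in shWDR5 and was not called (log2 fold change 0.07 ± 0.05, adjusted p = 0.26), so the LARS to LARS2 ratio per length went from 5.14 ± 0.19 (SD, n = 3) to 11.7 ± 1.16. The MARS to MARS2 ratio went from 11.8 ± 0.91 to 5.56 ± 0.38. Valine, arginine, cysteine, tryptophan and serine were the amino acids whose ratio overlapped between groups.

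Promoter sequence is shown for the genes at the extremes, LARS2 and MARS2, and for AARS and IARS, the called cytosolic genes whose window held an ATF4-type element. The 250 bases before the start site were taken from the RefSeq promoter table (GRCh38.p14), which matched 30 of the 37 genes. Those with no entry included YARS, DARS, LARS, VARS2, VARS and AARS2. Capitals mark matches, on either strand, to a C/EBP-ATF response element core (TGATGNAA), an E-box (CACGTG, bound by MYC-MAX and related factors), an ETS site (CCGGAAG), or the palindromic consensus of NRF1, a factor known for driving nuclear genes of mitochondrial function, whose letters appear in capitals between the ETS and E-box matches of MARS2. No match overlapped another in these 4 windows.
LARS2 (chr3:45388326-45388575, plus strand): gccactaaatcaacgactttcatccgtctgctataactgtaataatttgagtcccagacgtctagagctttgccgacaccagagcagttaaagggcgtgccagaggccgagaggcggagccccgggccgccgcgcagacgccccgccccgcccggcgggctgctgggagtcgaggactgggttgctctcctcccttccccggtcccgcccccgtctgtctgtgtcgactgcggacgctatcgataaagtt
MARS2 (chr2:197705119-197705368, plus strand): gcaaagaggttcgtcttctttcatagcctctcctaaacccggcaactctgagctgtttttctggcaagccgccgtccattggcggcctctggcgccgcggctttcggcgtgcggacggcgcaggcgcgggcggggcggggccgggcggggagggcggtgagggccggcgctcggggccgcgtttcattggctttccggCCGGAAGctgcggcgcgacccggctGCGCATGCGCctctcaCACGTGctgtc
AARS (chr16:70289507-70289756, minus strand): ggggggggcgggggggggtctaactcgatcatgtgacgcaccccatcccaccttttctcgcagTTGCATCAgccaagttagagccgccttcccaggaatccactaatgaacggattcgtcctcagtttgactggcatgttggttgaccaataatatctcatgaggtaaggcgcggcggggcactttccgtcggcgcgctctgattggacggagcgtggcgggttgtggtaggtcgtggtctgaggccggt
IARS (chr9:92293698-92293947, minus strand): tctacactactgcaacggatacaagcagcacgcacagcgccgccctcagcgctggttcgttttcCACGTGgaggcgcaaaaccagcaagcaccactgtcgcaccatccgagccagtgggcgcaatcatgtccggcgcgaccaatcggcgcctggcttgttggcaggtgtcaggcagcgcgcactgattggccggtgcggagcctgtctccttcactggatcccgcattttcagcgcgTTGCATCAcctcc
In MARS2 an ETS match, the NRF1 match and an E-box began at positions -52, -27 and -11 from the start, while the LARS2 window held none of the 4 motifs. Such empty windows occurred with every kind of call: EPRS and IARS2 (lower), CARS2 and FARSA (higher), GARS and TARS (not called). TARS2 and SARS2, both called lower, held an ETS match. A link between these motifs and the direction of change was not tested. The response element began at position -187 in AARS and at -13 in IARS, and IARS also had an E-box at -186.

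Counted over the 30 windows, the ETS site was present in 13 (43.3%, in 7 of 16 cytosolic and 6 of 14 mitochondrial genes), against 11.8% of 15842 protein-coding promoters and 14.9% of the promoters of genes tested here. HARS and HARS2 share part of 1 window and therefore the same matches. The ATF element was found in 3 of 30 (AARS, IARS and YARS2), against 2.21% of all promoters and 1.51% of those of genes tested. E-boxes stood in 3 windows, 10.0%, against 7.84% and 8.58%. Only MARS2 held the full NRF1 site, which 1.48% of all promoters and 1.86% of those of genes tested contain. These matches describe the sequence and are not evidence of binding.

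Some synthetase genes begin close to another gene on the opposite strand. By the hg19 coordinates of the count table, 11 of the 37 started within 1000 bases of such a neighbour. The share over all genes was not computed. SARS2 overlapped the start of MRPS12, a mitochondrial ribosomal protein gene, which was lower by more (-1.01, against -0.31). Their exon blocks share 189 bases, 8.85% of the SARS2 length, and reads there cannot be told apart where counting ignores strand. AARS and DDX19B fell alike (-0.56 and -0.52), as RARS2 and ORC3 did (-0.24 and -0.34). Elsewhere the neighbours went apart: KARS at -0.19 beside TERF2IP at 0.20, FARS2 at -0.30 beside LYRM4 at 0.24, EARS2 at -0.08 (not called) beside UBFD1 at 0.46. WARS at -0.34 lay beside WDR25 at 0.14, and WARS2 at -0.23 beside LOC101929147 at 0.29. Of those genes only WARS was called.

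HARS and HARS2 are themselves such a pair, and their exon blocks overlap by 302 bases on chromosome 5. HARS read 116, 110 and 112 CPM in shLuc and 116, 112 and 107 CPM in shWDR5, with overlapping groups. HARS2 read 42.7, 39.3 and 40.1 CPM in shLuc and 54.2, 49.5 and 48.6 CPM in shWDR5, without overlap. Reads in the shared bases cannot be told apart where counting ignores strand, and the strand setting is not given in the sources used here. In all, 7 synthetase genes shared exon bases with another row, from 2.33% of the length in MARS (with DDIT3) to 13.1% in HARS.

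Genes that assist tRNA charging were called about as often as genes in general. Of 14 listed genes 13 were tested, 5 were lower (38.5%, against 29.9% of all genes tested) and 3 higher (23.1%, against 26.6%). AARSD1 did not pass the filter on low counts. TARSL2, a close relative of TARS, was called higher (log2 fold change 0.52 ± 0.11, adjusted p = 0.00198). The scaffold AIMP1 was at 53.2, 54.9 and 58.2 CPM in shLuc and at 43.0, 46.5 and 45.5 CPM in shWDR5 (log2 fold change -0.30 ± 0.06, adjusted p = 0.0018). The scaffolds AIMP2 (-0.02 ± 0.09, adjusted p = 0.87) and EEF1E1 (-0.30 ± 0.13, adjusted p = 0.07) did not pass, and their groups overlapped. The EEF1E1 result depended on the setting. Its log2 fold change stayed between -0.40 and -0.19 in 13 alternative fits, and it remained uncalled in only 7 of them. XPOT, which exports tRNA from the nucleus, was lower at -0.23 ± 0.06 (adjusted p = 0.00816).

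Mitochondria have no separate glutamine enzyme: EARS2 loads glutamate on the glutamine tRNA and an amidotransferase of QRSL1, GATB and GATC converts it. QRSL1 was at 23.1, 22.1 and 24.3 CPM in shLuc and at 15.05, 15.01 and 14.01 CPM in shWDR5 (log2 fold change -0.66 ± 0.07, adjusted p = 2.28e-05). GATB was called lower too (-0.47 ± 0.09, adjusted p = 0.000976), whereas GATC was called higher (0.28 ± 0.06, adjusted p = 0.00222). The GATC to QRSL1 ratio per length was 1.25 ± 0.08 (SD, n = 3) in shLuc and 2.39 ± 0.10 in shWDR5, so the subunits of this enzyme, like those of the phenylalanine enzyme, shifted against each other.

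Selenocysteine is made on its tRNA, in a series of steps in which the kinase PSTK acts just before SEPSECS. SEPSECS stood at 10.8, 13.0 and 10.6 CPM in shLuc and at 3.69, 5.30 and 4.90 CPM in shWDR5 (log2 fold change -1.30 ± 0.13, adjusted p = 1.81e-05), the largest decrease of the list. PSTK, of low abundance, stood at 2.33, 2.58 and 2.58 CPM in shLuc and at 3.56, 3.54 and 3.77 CPM in shWDR5 (log2 fold change 0.54 ± 0.10, adjusted p = 0.00116). Neither gene had overlapping groups.

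Genes of the ATF4 response, to which many cytosolic synthetase genes belong, were called in each direction. Of 14 listed genes 6 were called higher (42.9%, against 26.6% of all genes tested) and 4 lower (28.6%, against 29.9%), so the share called lower was near that of genes in general. Under the study's fold threshold 6 remained higher and 1 lower, where 7.9% of all genes tested passed as higher and 10.5% as lower. The median absolute log2 fold change of the list was 0.65, against 0.31 over all genes tested. ATF4 itself was at 533, 520 and 516 CPM in shLuc and at 447, 426 and 420 CPM in shWDR5 (log2 fold change -0.28 ± 0.05, adjusted p = 0.000755). The glutathione-degrading enzyme CHAC1 rose most (2.41 ± 0.10, adjusted p = 9.60e-08), followed by STC2 (1.73 ± 0.06), SESN2 (1.07 ± 0.07), VLDLR, SLC7A11 and NUPR1. The serine synthesis enzyme PHGDH (-1.01 ± 0.07), TRIB3 (-0.52 ± 0.09) and the asparagine synthetase ASNS (-0.19 ± 0.06) were called lower, as were 11 of the 20 cytosolic synthetases.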

How the data were processed

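Poly-A RNA-seq libraries of MCF10DCIS.com cells (3 shLuc, 3 shWDR5) were analysed from the deposited raw counts per gene. The authors' processing notes name TopHat2 2.1.0, featureCounts and edgeR with hg19 (GRCh37). The annotation release, strand setting and treatment of multi-mapped reads are not given in the sources used here. A deposited table of the authors' own fold changes, F statistics and p-values was not used.

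Counts were tested with edgeR 4.0.16 (quasi-likelihood, TMM, filterByExpr, group only) in R 4.3.3. All 16117 genes that passed the filter entered 1 fit, p-values were adjusted by Benjamini-Hochberg over all of them, and calls were made at 0.05. Standard errors are the absolute log2 fold change over the square root of F. CPM are TMM-scaled, and RPKM divide them by the gene length in the table. The fit was tested on simulated counts in which few genes changed, equally up and down. That test does not cover data such as these, where most genes were called.

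Members were taken by symbol, and the genes named are, by rule, the called members with the largest changes (10 cytosolic, 8 mitochondrial), the 3 least changed of each compartment, GARS, KARS, same-amino-acid pairs, the 4 list genes with the smallest adjusted p and the 3 scaffolds; other genes were named after their values were seen. One mitochondrial member enters the counts, medians and sums but is not reported here by name or in the figures. Members and lists were chosen with earlier results of these data known. Alternatives were DESeq2 1.42.0, its size factors, edgeR's exact test, limma-voom 3.58.1, total count scaling, no filter, a replicate block, the study's fold threshold and leaving out each library.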

Additional observations from a re-analysis of the deposited data

How the results depend on the processing

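Calls on the synthetase genes kept their direction under the 13 refits, with 24 to 27 of the 27 calls shared in each; 18 to 24 genes were lower and 5 or 6 higher. Under the study's fold threshold 1688 of all genes were lower and 1274 higher. With it 3 synthetases were lower and 1 higher (cytosolic 0 and 0, mitochondrial 3 and 1). Among partner genes 2 were lower and 0 higher, and among ATF4 list genes 1 was lower and 6 were higher. That rule adds a minimum fold, and only the count of higher ATF4 list genes stayed the same. Total count scaling moved the cytosolic median log2 fold change to -0.23 and the mitochondrial to -0.29. Leaving out 1 library gave 4271 to 4584 lower and 3803 to 4263 higher genes, 18 to 20 and 5 to 6 synthetases, a cytosolic median of -0.18 to -0.16, a mitochondrial median of -0.29 to -0.22 (lowest without shWDR5 replicate 2), and a difference of medians (cytosolic minus mitochondrial) of 0.042 to 0.11, against 0.07 with all libraries.

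The genes whose sign changed, GARS, HARS, TARS and AIMP2, had no call. GARS was -0.0097 with no filter, -0.057 with total count scaling and -0.023 to 0.014 with 1 library left out, negative without shLuc replicate 2, shWDR5 replicate 1 or shWDR5 replicate 3. HARS was 0.0031 with DESeq2 size factors and -0.040 to 0.020 with 1 library left out, positive without shLuc replicate 1 or shWDR5 replicate 3. TARS was -0.033 with total count scaling, and AIMP2 ranged from -0.092 to 0.034, positive without shLuc replicate 2 or shWDR5 replicate 3. The cause was not tested.

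The labels do not say whether replicate numbers pair the libraries. Same-numbered libraries deviated from their group means with correlations of 0.56, 0.06 and 0.20. Replicate 2 did not correlate best with its own number. The shWDR5 replicate 3 library correlated more with shLuc replicate 2 (0.36) than with shLuc replicate 3. For shLuc replicate 1 the correlation was -0.16 with shWDR5 replicate 2 and -0.49 with shWDR5 replicate 3. On the second principal component (7.8% of the variance) shLuc replicate 1 lay at 13.6 and shWDR5 replicate 1 at 12.4. All other libraries lay between -10.5 and -2.9. Whether the replicate 1 libraries shared a batch was not tested. With the replicate block, 5511 genes were lower and 4901 higher, with 24 and 6 synthetases (SARS, WARS2 and NARS gained). VARS2 lost its call without shLuc replicate 1, shLuc replicate 2, shWDR5 replicate 2 or shWDR5 replicate 3 (adjusted p 0.053 to 0.083), and RARS2 without shLuc replicate 2 (adjusted p = 0.055).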
